A study of Homo sapiens with 42 samples.

Results

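Heterogeneous nuclear ribonucleoproteins (hnRNPs) are abundant nuclear proteins that coat nascent transcripts and act in splicing, 3′-end processing, export and stability of mRNA. The values of 10 hnRNP genes (HNRNPA0, HNRNPA1, HNRNPA2B1, HNRNPC, HNRNPD, HNRNPH1, HNRNPK, HNRNPL, HNRNPM and HNRNPU) were followed in K562, a cell line established from a chronic myeloid leukemia (CML) that carries the BCR-ABL1 fusion kinase. The genes were chosen by name, with earlier results of these data known, and each was found as 1 row among the 58243 gene rows of both count tables. All 10 passed the filter on low counts in both RNA fractions, with at least 2074 reads for each gene in each library. The lowest of these counts was that of HNRNPA0.

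Poly(A)-selected mRNA was sequenced in 27 libraries (9 groups) and rRNA-depleted nuclear RNA in 15 libraries (5 groups), with 3 libraries in each group. Untreated cells (CTRL) were compared with cells given 1 μM imatinib (IM), an inhibitor of the BCR-ABL1 kinase, 5 μM JTE-607 (JTE), an inhibitor of the 3′-end endonuclease CPSF73, or 110 mM KCl, a hyperosmotic shock. The mRNA groups were CTRL, IM 1h, IM 6h, IM 18h, JTE 1h, JTE 6h, JTE 18h, KCl 1h and KCl 3h, and the nuclear RNA groups were CTRL, IM 1h, IM 18h, JTE 1h and KCl 1h. Within a fraction the same CTRL group served for all times, and the labels give no vehicle or time-matched group. In comparisons with CTRL, treatment and time in culture therefore cannot be told apart. All groups are the same parental K562 line, a single tumor-derived line, so that the 3 libraries of a group do not stand for different patients. Per the methods of the study, each treatment was carried out in separate experiments. The p-values rest on the spread between libraries within groups, estimated over all groups in a fit.

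Each family of hnRNPs binds its own kind of RNA element. The A/B proteins (HNRNPA0, HNRNPA1 and HNRNPA2B1) are known for repressing splice sites and binding UAG-like elements, HNRNPC for binding uridine tracts, HNRNPD (AUF1) for binding AU-rich elements of unstable mRNAs, and HNRNPH1 for binding guanine runs. HNRNPK binds cytosine-rich RNA, HNRNPL binds CA repeats, HNRNPM takes part in splice site choice, and HNRNPU (also called SAF-A) links RNA to chromatin. In CML cells, HNRNPA1 and HNRNPK are known as regulators of mRNAs under BCR-ABL1 activity, which imatinib blocks.

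JTE acts on the cleavage that ends a transcript, so the end of each gene's canonical transcript is shown first. These are the last 30 bases before the annotated cleavage site (GENCODE 44 canonical transcript, read from hg38 on the strand of the gene, 5′ to 3′). Capitals mark an AATAAA or ATTAAA hexamer, the polyadenylation signal recognised by the cleavage complex, searched on the transcribed strand only.
HNRNPA0 (ENSG00000177733), chr5:137745651-137745680, minus strand: ctgtAATAAActttagccatgagtacgata
HNRNPA1 (ENSG00000135486), chr12:54287058-54287087, plus strand: ttttttttttAATAAActgtatttaactta
HNRNPA2B1 (ENSG00000122566), chr7:26189927-26189956, minus strand: ccAATAAAatgctgttcattatgcactgta
HNRNPC (ENSG00000092199), chr14:21209147-21209176, minus strand: tctacATTAAAatacctgataaaatgtaaa
HNRNPD (ENSG00000138668), chr4:82352498-82352527, minus strand: atctctcAATAAAaaattatttttaagaga
HNRNPH1 (ENSG00000169045), chr5:179614178-179614207, minus strand: gtcaAATAAAtcctccttttaaaaactgca
HNRNPK (ENSG00000165119), chr9:83968083-83968112, minus strand: tcttaaaaggaaatatagtaatcttatgta
HNRNPL (ENSG00000104824), chr19:38836370-38836399, minus strand: ataaacacagcacttgctgggattccagga
HNRNPM (ENSG00000099783), chr19:8489085-8489114, plus strand: actttgatAATAAAtaccggttcctgaaaa
HNRNPU (ENSG00000153187), chr1:244850297-244850326, minus strand: ataagcATTAAAagtactttgtccagctaa
A hexamer was found in 8 of the 10 windows, or 80.0%, against 69.6% of the 20046 windows of the same length at the ends of all canonical protein-coding transcripts. HNRNPA0, HNRNPA1, HNRNPA2B1, HNRNPD, HNRNPH1 and HNRNPM carry AATAAA (56.6% of all windows), HNRNPC and HNRNPU carry ATTAAA (15.2% of all windows), and neither is in the windows of HNRNPK and HNRNPL. The hexamer of HNRNPA1 starts 20 bases before the end and that of HNRNPA2B1 starts 28 bases before it.

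HNRNPA2B1 and HNRNPC had the most similar mRNA profiles of all 45 pairs of these genes, so their promoters are shown as well: the 250 bases before the RefSeq transcript start (GRCh38.p14), on the strand of the gene, 5′ to 3′. Capitals mark 4 motifs searched on both strands: CCAAT (bound by NF-Y, in 32.0% of all 35116 RefSeq promoter windows of this length), TATAAA (10.7%), GGGCGG (GC box, 42.6%) and CGGAAG (an ETS core, 16.5%).
HNRNPA2B1, chr7:26200747-26200996, minus strand: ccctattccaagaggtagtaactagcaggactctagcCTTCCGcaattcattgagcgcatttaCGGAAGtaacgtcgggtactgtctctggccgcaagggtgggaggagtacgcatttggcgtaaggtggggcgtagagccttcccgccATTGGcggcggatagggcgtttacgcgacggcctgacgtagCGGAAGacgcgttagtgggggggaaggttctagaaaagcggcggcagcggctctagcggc
HNRNPC, chr14:21269443-21269692, minus strand: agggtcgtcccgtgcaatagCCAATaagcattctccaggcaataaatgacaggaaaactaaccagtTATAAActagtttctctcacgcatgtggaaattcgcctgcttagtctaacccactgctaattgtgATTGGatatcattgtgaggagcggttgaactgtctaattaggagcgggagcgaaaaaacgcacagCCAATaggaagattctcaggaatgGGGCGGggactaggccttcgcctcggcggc
HNRNPA2B1 has 1 CCAAT match, 101 bases before the start, and 3 CGGAAG matches, whereas HNRNPC has 3 CCAAT matches, 1 TATAAA match 184 bases before the start and 1 GGGCGG match. Of the 4 motifs, both windows hold CCAAT alone. CCAAT was also found in promoter entries of HNRNPA0, HNRNPK, HNRNPL and HNRNPU, and in none of HNRNPD, HNRNPH1 and HNRNPM. It is thus not particular to this pair. The matches are letters in a window and no binding was measured. RefSeq promoter entries were at hand for 9 of the 10 genes.

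Library totals were between 16439848 and 22505595 reads assigned to genes in 25 of the 27 mRNA libraries, 42474454 and 62953314 in the other two (KCl 1h, libraries 3 and 2), and between 16175394 and 25103205 in the nuclear RNA libraries. The embryonic and fetal globins, GATA1, BCR and ABL1, which define K562, were present in every group, while summed T cell markers (CD3D, CD3E, CD3G) reached at most 6.84 CPM (reads as a rate over the TMM-scaled library total) in any library, summed B cell markers at most 6.49 CPM and summed fibroblast markers at most 18.9 CPM. SOCS3, a STAT5 target used to check imatinib, fell in IM 1h mRNA (log2 fold change -3.11 ± 0.29 (SE, n = 3 in each group), adjusted p = 2.3e-06), and TSPOAP1 rose in JTE 1h mRNA (3.81 ± 0.30, adjusted p = 1.1e-07). The gene lists were chosen with earlier results of these data known, so the rise of TSPOAP1 is no independent check of JTE. The nuclear noncoding RNAs MALAT1 and NEAT1 summed to 12041 to 17459.7 CPM in nuclear CTRL and 2755 to 2886 CPM in mRNA CTRL.

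The mRNA levels of most of the hnRNP genes were high among the genes tested in untreated cells. Per length of exon, HNRNPA1 had the highest mRNA level (425 FPKM, the CPM divided by exon length in kilobases, rank 57 of 18095 genes tested) and HNRNPA0 the lowest (20.3 FPKM, rank 2422). Between them stood HNRNPA2B1 (241 FPKM), HNRNPK (173 FPKM), HNRNPC (129.6 FPKM), HNRNPD (121 FPKM), HNRNPM (90.3 FPKM), HNRNPU (72.3 FPKM), HNRNPH1 (62.2 FPKM) and HNRNPL (49.8 FPKM). The exon length used for HNRNPU, 22512 bases, is the longest of the 10.
The spread between the 3 CTRL libraries was small beside these differences for most of the order. HNRNPC (118 to 135 FPKM) and HNRNPD (113 to 126 FPKM) overlapped, as did HNRNPU (68.6 to 76.9 FPKM) with HNRNPH1 (52.6 to 69.0 FPKM) and HNRNPH1 with HNRNPL (40.2 to 56.2 FPKM).

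**Figure D1:**
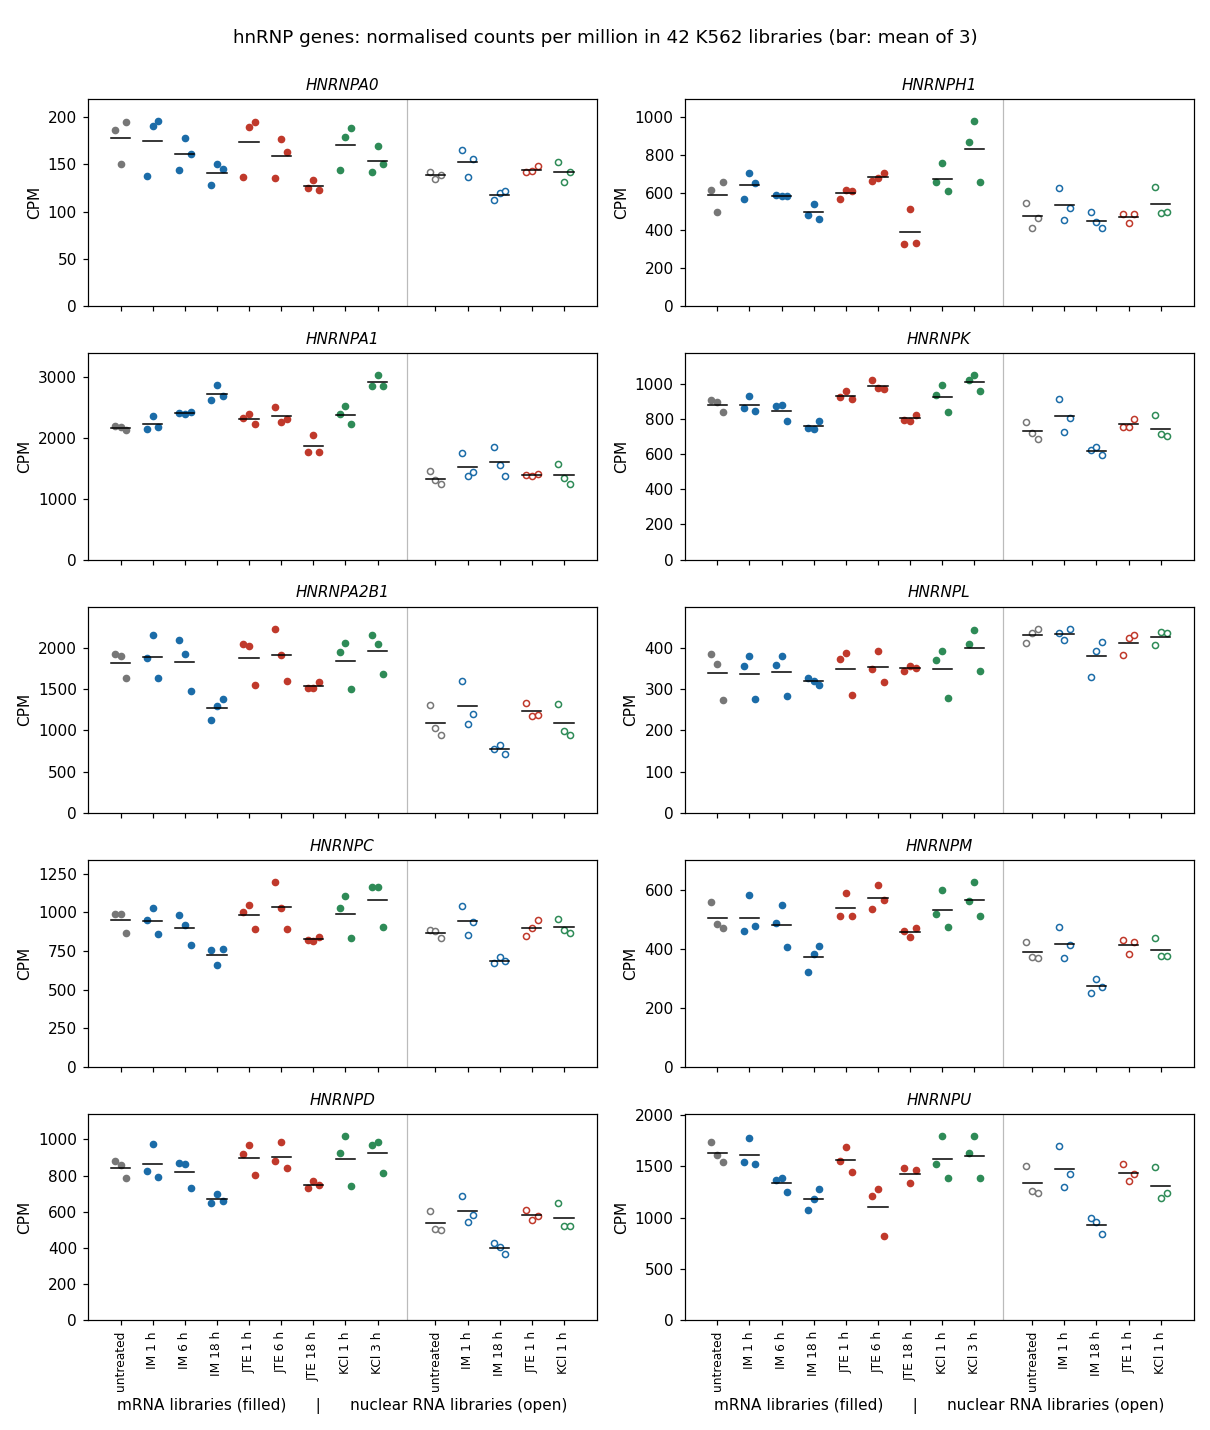
CPM (after TMM scaling) of each of the 10 hnRNP genes in all 42 libraries, with 1 point per library and a bar at the mean of 3; filled points are mRNA and open points nuclear RNA, and each panel has its own axis from 0. HNRNPA1 stood at 2163 ± 39.7 CPM in CTRL mRNA and 2721 ± 121 CPM in IM 18h mRNA (SD, n = 3), whereas HNRNPA2B1 stood at 1819 ± 162 and 1268 ± 132 CPM.

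HNRNPL, the binder of CA repeats, passed in no comparison without the replicate block. From the lowest to the highest of the 27 mRNA libraries it ran from 274 to 442 CPM, and in the 15 nuclear libraries from 329.9 to 445 CPM. HNRNPH1 ran from 327 to 977 CPM in mRNA but only from 411 to 628 CPM in nuclear RNA, which was not sampled at JTE 6h, JTE 18h or KCl 3h. HNRNPA0, the lowest of the 10, ran from 123 to 196 CPM in mRNA and from 112 to 166 CPM in nuclear RNA.
Relative to all genes, nuclear RNA held less of the hnRNP transcripts than mRNA did. In CTRL the nuclear to mRNA ratio of CPM was below 1 for 9 of the 10 genes, from 0.601 for HNRNPA2B1 to 0.916 for HNRNPC, and was 1.27 for HNRNPL, while the median over all genes in both tables was 1.23. These 2 kinds of library were prepared differently, so the ratio is a description and was not tested. Across the groups of 1 fraction, the mean CPM of a gene varied at most 2.13-fold (HNRNPH1 in mRNA) and at least 1.14-fold (HNRNPL in nuclear RNA). The spread within a group was smallest for HNRNPK (median coefficient of variation 4.46%) and largest for HNRNPA2B1 (14.2%).

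After 18 h of imatinib most of the hnRNP mRNAs stood below CTRL and HNRNPA1 stood above it. In IM 18h mRNA, 6 of the 10 genes fell (HNRNPA2B1, HNRNPC, HNRNPD, HNRNPK, HNRNPM and HNRNPU), HNRNPA1 rose, and HNRNPA0, HNRNPH1 and HNRNPL did not pass the test (edgeR quasi-likelihood test, Benjamini-Hochberg adjusted p under 0.05 over 18095 genes). Over all genes 43.8% passed in this comparison, 22.8% upward and 21% downward. The median log2 fold change of the 10 genes was -0.33, against 0.038 over all genes tested. No change of a gene of the 10 reached 0.6 on the log2 scale, the fold threshold of the study.
HNRNPA2B1, an A/B protein that also sorts RNAs into exosomes, stood at 1922, 1902 and 1632 CPM in CTRL and at 1123, 1298 and 1382 CPM in IM 18h. The groups did not overlap, and the log2 fold change was -0.52 ± 0.15 (SE, n = 3 in each group) with adjusted p = 0.0061. HNRNPU, the chromatin-linked member, fell from 1731, 1609 and 1544 CPM to 1073, 1185 and 1276 CPM. Its 3 treated libraries lay below all CTRL libraries, at 72.4% of the CTRL level (log2 fold change -0.47 ± 0.13, adjusted p = 0.0047).
HNRNPM, a splicing regulator, went from 561, 487 and 473 CPM to 321, 385 and 412 CPM. This is 73.5% of CTRL, with no overlap of the groups (log2 fold change -0.44 ± 0.12, adjusted p = 0.0043). HNRNPC, the uridine-tract binder, went from 989, 988 and 865 CPM to 756, 661 and 759.7 CPM (log2 fold change -0.38 ± 0.12, adjusted p = 0.012). All 3 treated libraries were again the lower ones.
HNRNPD, the binder of AU-rich elements, stood at 883, 861 and 788 CPM in CTRL and 649, 697 and 662 CPM in IM 18h. HNRNPK stood at 910.3, 902 and 840.2 CPM and 749.8, 743 and 790.5 CPM. HNRNPD and HNRNPK thus fell less, by 0.34 and 0.22 on the log2 scale (adjusted p = 0.015 and adjusted p = 0.015), and their groups did not overlap either. The call on HNRNPC was lost without IM 18h library 2 (adjusted p = 0.058), that on HNRNPD without CTRL library 1 or IM 18h library 1 (adjusted p = 0.054 and 0.053), and that on HNRNPK without CTRL library 1 (adjusted p = 0.054) or with upper quartile scaling (adjusted p = 0.093).

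HNRNPA1, the most abundant of the 10, moved the other way. It stood at 2195, 2175 and 2119 CPM in CTRL and at 2623, 2856 and 2684 CPM in IM 18h. Every treated library was above every CTRL library, and the log2 fold change was 0.33 ± 0.069 (SE, n = 3 in each group) with adjusted p = 0.00048. With no low-count filter this call was lost (log2 fold change 0.25, adjusted p = 0.089). The other A/B gene, HNRNPA0, stood at 187, 151 and 195 CPM in CTRL and 128, 150.0 and 145 CPM in IM 18h and did not pass (log2 fold change -0.33 ± 0.15, adjusted p = 0.072). The 95% interval of the log2 fold change was -0.54 to 0.04 for HNRNPH1 and -0.38 to 0.20 for HNRNPL.
At earlier times none of the 10 passed. The 0 calls by edgeR in IM 1h mRNA came with 0 genes at an unadjusted p under 0.05 and 0 calls by DESeq2, where 0.0166% of all genes passed. The 0 calls in IM 6h mRNA came with 2 genes at an unadjusted p under 0.05 and 0 by DESeq2, where 16% of all genes passed. HNRNPU had the lowest log2 fold change of the 10 at IM 6h, with 1368, 1383 and 1244 CPM against 1731, 1609 and 1544 CPM in CTRL (log2 fold change -0.29 ± 0.13, adjusted p = 0.13). With the replicate number as a block and CTRL libraries 1 and 2 exchanged, an alternative chosen after seeing the data, 2 of the 10 passed at IM 6h, 1 upward and 1 downward. The share of all genes in that fit is not given. Set against IM 6h directly, only HNRNPA2B1 of the 10 passed at IM 18h, and it was lower (log2 fold change -0.53 ± 0.15, adjusted p = 0.027). In this comparison 8.34% of all genes passed. Of the 10, 6 had an unadjusted p under 0.05 by edgeR, and DESeq2 called 2. The edgeR call on HNRNPA2B1 was lost without library 1 or 2 of IM 6h or library 1 or 2 of IM 18h (adjusted p = 0.074 to 0.19).

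The nuclear RNA gave the same direction as the mRNA for each of the 10 genes at IM 18h. How many of all genes agreed in direction is not given. In nuclear RNA 7 fell (HNRNPA0, HNRNPA2B1, HNRNPC, HNRNPD, HNRNPK, HNRNPM and HNRNPU) and none rose. Over all 21929 genes tested 45.6% passed, 22.6% upward and 23.1% downward. The median log2 fold change of the 10 was -0.29, against 0 over all genes.
HNRNPU stood at 1501, 1260.4 and 1242 CPM in nuclear CTRL and at 992, 956 and 839 CPM in nuclear IM 18h (log2 fold change -0.52 ± 0.11, adjusted p = 0.0007). HNRNPM stood at 426, 375 and 371 CPM and 250.5, 298 and 273 CPM (log2 fold change -0.51 ± 0.10, adjusted p = 0.00044). In both, the treated libraries lay below all CTRL libraries.
HNRNPA2B1 went from 1303, 1030.4 and 947 CPM to 773, 826 and 709.9 CPM, with CTRL library 1 standing high (log2 fold change -0.51 ± 0.15, adjusted p = 0.011). Without that library the value was -0.32 and did not pass (adjusted p = 0.081). HNRNPD and HNRNPC fell to 74.5% and 79.2% of CTRL (adjusted p = 0.0034 and adjusted p = 0.0029).
HNRNPA0 and HNRNPK passed narrowly (adjusted p = 0.041 and adjusted p = 0.046), and both calls were lost under each other scaling and when any single library of the 2 groups was left out.
HNRNPA1 stood at 1455, 1296 and 1231 CPM in nuclear CTRL and 1845, 1556 and 1371 CPM in nuclear IM 18h. These groups overlapped, though each treated library was above the CTRL library of its own number, and the log2 fold change was 0.26 ± 0.12 (adjusted p = 0.071). Nuclear libraries of 1 number deviated together, so a fit with the replicate number as a block was also made: it gave 0.26, adjusted p = 0.0031, for HNRNPA1 and -0.19, adjusted p = 0.017, for HNRNPL, so that 9 of the 10 genes passed, 1 of them upward. The 45.6% of all genes given above is from the fit without the block, and no such share is given for the blocked fit.
The responses of the 2 RNA fractions were compared in 1 model. No gene of the 10 passed at IM 18h (0 at an unadjusted p under 0.05, 0 by DESeq2), where 0.0901% of all genes passed, and the differences ran from -0.041 for HNRNPL to 0.23 for HNRNPH1. The 95% interval for HNRNPA1 was -0.30 to 0.27.

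**Figure D2:**
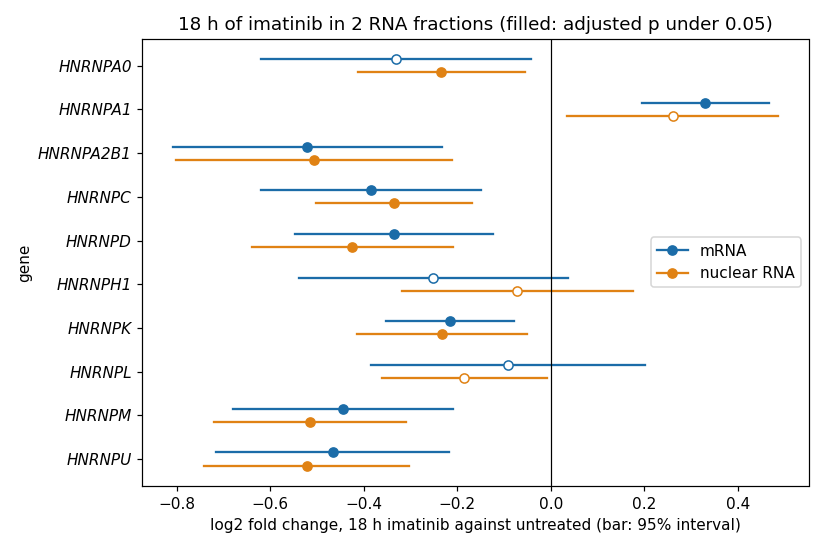
Log2 fold change of IM 18h against CTRL for each of the 10 hnRNP genes in mRNA (blue) and nuclear RNA (orange), with bars for the 95% interval (n = 3 in each group) and filled points where the adjusted p was under 0.05. HNRNPA1 is the one gene to the right of 0, at 0.33 in mRNA and 0.26 in nuclear RNA, and the blue and orange intervals of every gene overlap.

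Erythroid genes moved in the same groups. Of 7 erythroid genes (GATA1, TAL1, KLF1, HBG1, HBG2, HBE1 and HBZ), 6 rose in IM 18h mRNA and the same number in IM 18h nuclear RNA. Their summed level was 2496 to 4322 CPM in CTRL mRNA and 9336 to 13341 CPM in IM 18h mRNA, and 3626 to 5499.6 CPM and 10988 to 13126 CPM in the nuclear libraries, with none of the 7 at 0. A list of mitochondrial and ribosomal protein mRNAs (MT-CO1, MT-ND4, MT-CYB, RPLP0 and RPS3) was higher as well, with 39506 to 43881 CPM in CTRL mRNA and 49087 to 51253 CPM in IM 18h mRNA, and 22548 to 28384 CPM and 30157 to 34395 CPM in the nuclear libraries. None of these groups overlapped. The part of either list in the change of the hnRNP genes was not tested. In bulk RNA, fewer cells of a kind and less RNA per cell cannot be told apart.

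Under JTE, the CPSF73 inhibitor, none of the 10 hnRNP genes passed against CTRL in mRNA at 1 h, 1 passed at 6 h and 3 passed at 18 h. In JTE 1h mRNA the 10 log2 fold changes lay between -0.063 and 0.094 and none passed (0 by DESeq2 and 0 at an unadjusted p under 0.05, where 0.984% of all genes passed by edgeR). In JTE 6h mRNA, 1 of the 10 fell and none rose, where 18.1% of all genes passed. This was HNRNPU, at 1205, 1276 and 821 CPM against 1731, 1609 and 1544 CPM in CTRL (log2 fold change -0.56 ± 0.13 (SE, n = 3 in each group), adjusted p = 0.0024). Library 3 stood lowest, and all 3 lay below CTRL. With the block and the exchanged CTRL numbers, 2 of the 10 passed, 1 in each direction, and no share of all genes is given for that fit.
The other 9 genes had log2 fold changes from -0.16 (HNRNPA0) to 0.21 (HNRNPH1) at 6 h. For HNRNPC, whose next gene downstream is described further on, the 95% interval was -0.10 to 0.37.

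By JTE 18h, 3 of the 10 had fallen (HNRNPA0, HNRNPA1 and HNRNPH1) and none had risen, where 9.19% of all genes passed. The median log2 fold change of the 10 was -0.19, against -0.011 over all genes tested.
HNRNPH1, the binder of guanine runs, had the largest of these falls. It stood at 327, 513 and 333 CPM in JTE 18h and at 616, 498 and 654 CPM in CTRL, so that JTE 18h library 2 lay above CTRL library 2 and the groups overlapped (log2 fold change -0.59 ± 0.15 (SE, n = 3 in each group), adjusted p = 0.012). HNRNPA0 stood at 125, 134 and 123 CPM in JTE 18h, below the CTRL libraries (log2 fold change -0.48 ± 0.15, adjusted p = 0.04). HNRNPA1 stood at 1766, 2044 and 1762 CPM, also below CTRL, with library 2 the highest of the 3 (log2 fold change -0.22 ± 0.069, adjusted p = 0.046).
None of the 10 passed without CTRL library 3, JTE 18h library 1 or JTE 18h library 3, 1 passed without CTRL library 1, and 1 passed with upper quartile scaling, with library totals, or with only these 6 libraries in the fit.

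The JTE 6h and JTE 18h groups were also set against each other, a comparison added after the values against CTRL had been seen. From JTE 6h to JTE 18h mRNA, HNRNPA1, HNRNPH1 and HNRNPK fell and HNRNPU rose, where 21.8% of all genes passed. HNRNPH1 fell by 0.80 on the log2 scale, from 664, 677 and 703 CPM to the values given above for JTE 18h (adjusted p = 0.00043). This was the only change of the 10 genes beyond 0.6 in any comparison, where 13.4% of all genes passed with a change beyond 0.6.
HNRNPA1 stood at 2500.2, 2261 and 2302 CPM in JTE 6h, all above the CTRL libraries, and all below them at JTE 18h (log2 fold change between the times -0.34 ± 0.069, adjusted p = 0.001). HNRNPK, the binder of cytosine-rich RNA, followed with 1023, 979.7 and 975 CPM and then 797, 793 and 826 CPM, around CTRL values of 910.3, 902 and 840.2 CPM (log2 fold change between the times -0.30 ± 0.07, adjusted p = 0.0032). With library totals in place of TMM, or with no low-count filter, the call on HNRNPK was lost (adjusted p = 0.075 and 0.15). HNRNPU rose from its low at 6 h to 1477, 1336 and 1465 CPM (adjusted p = 0.037), a call lost without JTE 6h library 3 (log2 fold change 0.20, adjusted p = 0.25). It was also lost without JTE 18h library 1, 2 or 3, with adjusted p = 0.10, 0.051 and 0.10.
In the fit with the replicate number as a block, 9 of the 10 genes passed, 8 lower at 18 h and HNRNPU higher. That block spans all 27 mRNA libraries, also groups whose numbers did not pair, and no share of all genes is given for it. HNRNPL was the exception (0.00, adjusted p = 0.99).

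**Figure D3:**
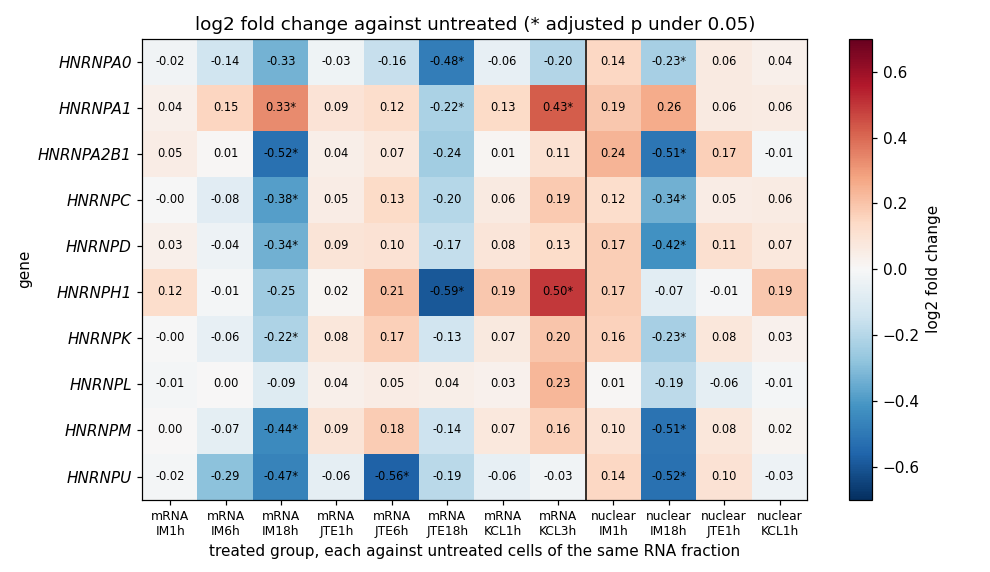
Log2 fold change of each hnRNP gene (rows) in each of 12 treated groups against CTRL of the same RNA fraction (columns), in color and numbers, with an asterisk where the adjusted p was under 0.05. The asterisks gather in the IM 18h columns (7 in mRNA and 7 in nuclear RNA), with 1 in JTE 6h, 3 in JTE 18h and 2 in KCl 3h.

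After 3 h of hyperosmotic shock 2 hnRNP mRNAs stood above CTRL. In KCl 3h mRNA, HNRNPA1 and HNRNPH1 rose and none of the 10 fell, where 15.8% of all genes passed. The median log2 fold change of the 10 was 0.18, against 0.024 over all genes, and the summed CPM of the 10 genes reached its highest group mean here (11429 ± 1051 CPM, against 9899 ± 498 CPM in CTRL).
HNRNPA1 stood at 2844, 3023 and 2846 CPM, 3 of the 4 highest values of any mRNA library and all above CTRL (log2 fold change 0.43 ± 0.069 (SE, n = 3 in each group), adjusted p = 9.5e-05). HNRNPH1 stood at 866, 977 and 654 CPM, with library 3 just above the highest CTRL library (log2 fold change 0.50 ± 0.15, adjusted p = 0.02). The call on HNRNPH1 was lost without CTRL library 2, KCl 3h library 1 or KCl 3h library 2 (adjusted p = 0.14, 0.080 and 0.14). With the block and the exchanged CTRL numbers, 4 of the 10 rose and none fell, and no share of all genes is given for that fit.
The mitochondrial and ribosomal protein mRNAs named above summed to 23460.1 to 30719 CPM in KCl 3h and 39506 to 43881 CPM in CTRL mRNA, and the part of this in the rise was not tested.
In KCl 1h mRNA none of the 10 passed (0 at an unadjusted p under 0.05, 0 by DESeq2, where 6.24% of all genes passed by edgeR). Set against KCl 1h directly, KCl 3h was higher for HNRNPA1 (2390.2, 2515 and 2219 CPM at 1 h; log2 fold change 0.29 ± 0.069, adjusted p = 0.012), where 4.89% of all genes passed. That call was lost without KCl 1h library 1 or 3, or KCl 3h library 1 or 2 (adjusted p = 0.055 to 0.13). The interval for HNRNPU, which fell under IM and JTE 6h, was -0.27 to 0.22 against CTRL at KCl 3h.

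In nuclear RNA after 1 h, none of the 10 passed under any of the 3 treatments. The share of all genes that passed was 0.0456% for IM 1h, 9.86% for JTE 1h and 27.2% for KCl 1h. In each of these the edgeR test without the replicate block put 0 hnRNP genes at an unadjusted p under 0.05, and DESeq2 called 0. With the block, none passed in IM 1h or JTE 1h. The lowest adjusted p in the blocked IM 1h fit was 0.15 (HNRNPA2B1, 0.24 ± 0.084). With the replicate block, HNRNPH1 passed in KCl 1h (0.19, adjusted p = 0.04), from 544, 413 and 465 CPM to 628, 493 and 496 CPM. Each KCl library was above the CTRL library of its number.
All 10 values were above 0 in IM 1h nuclear RNA, from 0.01 (HNRNPL) to 0.24 (HNRNPA2B1), with a median of 0.15 against 0.0017 over all genes tested. The test of the nuclear against the mRNA response at 1 h gave no call among the 10 for IM (0% of all genes passed), for JTE (0.0605%) or for KCl (0.668%), with 0 of the 10 at an unadjusted p under 0.05 and 0 by DESeq2 in each.

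At matched times the treatments were also set against each other. At 18 h, IM was above JTE for HNRNPA1 by 0.55 ± 0.069 on the log2 scale (SE, adjusted p = 1.4e-06), the 3 IM libraries being above the 3 JTE libraries. IM was below JTE for HNRNPM (-0.30 ± 0.12, adjusted p = 0.045), and 44.2% of all genes passed in this comparison. The call on HNRNPM was lost without library 1 or 2 of IM 18h and without library 1, 2 or 3 of JTE 18h (adjusted p = 0.061 to 0.23). HNRNPA2B1, which fell under IM 18h and not by the test under JTE 18h, did not differ by the test between them (adjusted p = 0.13, 95% interval -0.57 to 0.01).
At 6 h, HNRNPK was lower in IM than in JTE (-0.22 ± 0.07, adjusted p = 0.015), where 34.8% of all genes passed. That call was lost without IM 6h library 3 (adjusted p = 0.13) or JTE 6h library 1 (adjusted p = 0.051). These libraries deviated together by number, but the block spans all 27 mRNA libraries, also groups whose numbers did not pair. With that block HNRNPM was lower in IM as well (-0.26, adjusted p = 0.038) and HNRNPU higher (0.29, adjusted p = 0.029).

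Over the 27 mRNA libraries, HNRNPA2B1, HNRNPC, HNRNPD, HNRNPK and HNRNPM had similar profiles and HNRNPU, HNRNPA0 and HNRNPA1 were least like the rest. Pearson's r of log2 CPM was between -0.179 (HNRNPA0 with HNRNPL) and 0.923 (HNRNPA2B1 with HNRNPC), with a median of 0.529 over the 45 pairs. Against the mean profile of the other 9, HNRNPD had the highest r (0.936), followed by HNRNPK (0.884), HNRNPC (0.882), HNRNPM (0.858) and HNRNPA2B1 (0.849), and HNRNPU (0.462), HNRNPA0 (0.316) and HNRNPA1 (0.250) the lowest. These libraries share their groups and depth, so the values describe likeness and have no test.
Among the 8817 genes compared, the 3 other genes most like the mean profile of the 10 were CNBP (r = 0.946), which encodes a nucleic acid-binding zinc finger protein, PFDN6 (r = 0.945), a prefoldin subunit, and PDHA1 (r = 0.943), a subunit of pyruvate dehydrogenase. By Spearman's rho 1 of these 3 stayed in the first 3, and by r over the 9 group means none did, so the order among close genes depends on the measure. HNRNPDL, the paralog of HNRNPD, ranked 5.

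**Figure D4:**
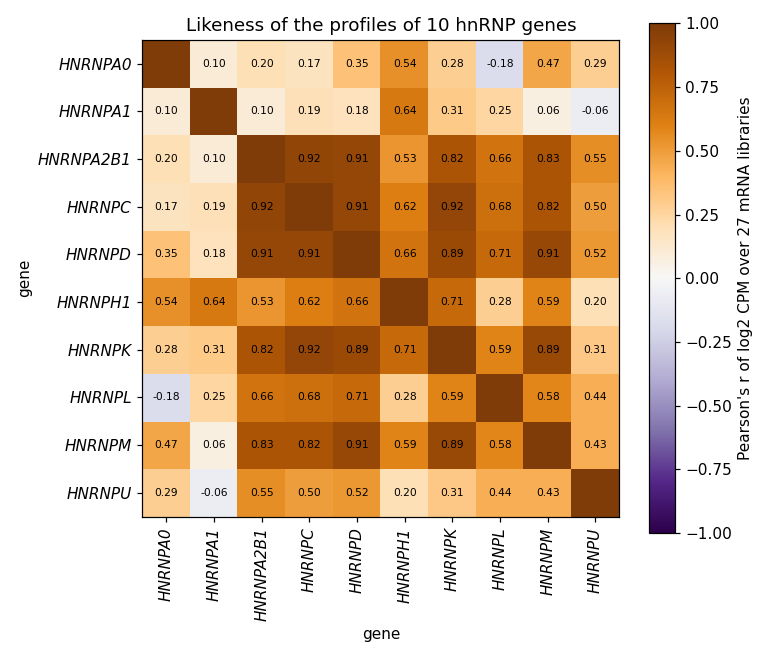
Pearson's r of log2 CPM between each pair of the 10 hnRNP genes over 27 mRNA libraries, in color and numbers. HNRNPA2B1, HNRNPC, HNRNPD, HNRNPK and HNRNPM form the block of high values, and the rows of HNRNPA0 and HNRNPA1 are paler, with the lowest value (-0.179) between HNRNPA0 and HNRNPL.

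Of 20 other hnRNP and hnRNP-related genes, more fell than rose in each IM group where any passed. In IM 18h mRNA 12 fell and 1 rose, and in IM 18h nuclear RNA 11 fell and 2 rose, with medians of -0.41 and -0.43 on the log2 scale. Over all genes 21% fell and 22.8% rose in IM 18h mRNA and 23.1% fell and 22.6% rose in IM 18h nuclear RNA, with medians of 0.038 and 0. HNRNPAB fell furthest, from 446 ± 37.5 to 200.0 ± 26.6 CPM in mRNA (SD, n = 3; log2 fold change -1.16 ± 0.13, adjusted p = 3.2e-07), a fall past any of the 10 genes, with -1.30 ± 0.10 in nuclear RNA. HNRNPUL2, a paralog of HNRNPU, rose in both (log2 fold change 0.28 ± 0.11 in mRNA, adjusted p = 0.045). In IM 6h mRNA 4 fell and 1 rose, where 7.85% of all genes fell and 8.17% rose, with HNRNPAB (-0.71) and HNRNPUL2 (0.36) again at the ends.
In JTE 6h mRNA 2 rose and 2 fell, where 8.9% of all genes rose and 9.16% fell, led by RBMX (0.51) and HNRNPR (-0.52). RBMX, an X-linked hnRNP G protein, stood at 690.5, 746 and 667 CPM in CTRL, at 1038, 937 and 1023 CPM in JTE 6h and at 376, 451 and 389 CPM in JTE 18h, above CTRL in all libraries at 6 h and below it in all at 18 h (at 18 h -0.79 ± 0.10, adjusted p = 9.2e-06). In JTE 18h 4 of the 20 fell and none rose, where 4.65% of all genes fell and 4.54% rose. In KCl 3h 1 fell, TARDBP (-0.38, adjusted p = 0.035), where 9.03% of all genes fell. In the 1 h groups the edgeR test called 0 of the 20, with 0 at an unadjusted p under 0.05 except for 1 in IM 1h nuclear RNA.

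JTE and KCl are known to let transcription run on past gene ends, so the next gene past the 3′ end of each hnRNP gene was looked at too. The nearest such gene that was tested in any comparison lay within 10000 bases for 9 of the 10. These 9 were taken by position among tested genes after the tests had been fixed. The low-count filter ran over all groups of a fraction. A gene with few CTRL reads, such as PRAM1, could thus be tested only through groups where it was higher. Counts of rising genes are therefore partly fixed by the filter and only describe these genes. At HNRNPL, the protein-coding gene ENSG00000268083 overlaps its end on the same strand but was not tested, and ECH1 was taken. In JTE 1h nuclear RNA, 4 of the 8 that could be tested rose and none fell, where 7.2% of all genes rose and none of the hnRNP genes beside them passed. In KCl 1h nuclear RNA, 5 of the 8 rose and 1 fell, where 16.6% of all genes rose.
LINC00641, a long noncoding RNA that starts 2236 bases past HNRNPC on the same strand, stood at 20.0, 16.6 and 22.1 CPM in nuclear CTRL, at 80.2, 60.3 and 80.8 CPM in JTE 1h and at 47.7, 42.5 and 59.0 CPM in KCl 1h. Every treated library was above every CTRL library (log2 fold change 1.92 ± 0.15, adjusted p = 1.2e-07, and 1.35 ± 0.15, adjusted p = 8.2e-07). HNRNPC itself stood at 888, 882 and 835 CPM, then 849.9, 897 and 949.9 CPM and 956, 887 and 867 CPM in the same groups, with 95% intervals of its log2 fold change of -0.12 to 0.22 and -0.11 to 0.22.
PRAM1 faces HNRNPM from 942 bases past its end on the other strand. It had 4, 2 and 5 reads in nuclear CTRL, 19, 30 and 23 reads in JTE 1h and 19, 23 and 52 reads in KCl 1h. These counts are small, and the treated libraries were above CTRL in each (log2 fold change 2.57 ± 0.51, adjusted p = 0.002, and 3.13 ± 0.49, adjusted p = 3.9e-05).
NFE2L3, which faces HNRNPA2B1 from 2802 bases past its end, rose by 0.96 ± 0.12 in JTE 1h and 0.75 ± 0.12 in KCl 1h nuclear RNA (adjusted p = 1.7e-05 and adjusted p = 3.6e-05). COX20, whose end overlaps the annotated span of HNRNPU but lies past the end of its canonical transcript, rose by 0.72 ± 0.15 and 0.52 ± 0.15 (adjusted p = 0.003 and adjusted p = 0.012). No strand option was stated for the counting, so reads from the 2 strands of PRAM1, NFE2L3 and COX20 cannot be told apart. RUFY1, past HNRNPH1, rose in KCl 1h as well (0.30 ± 0.10, adjusted p = 0.034), and the 1 that fell there was the noncoding gene ENSG00000258344, which spans HNRNPA1 and runs on past its end (-1.71 ± 0.23, adjusted p = 7.4e-06).
In JTE 6h mRNA, LINC00641 stood at 123, 125 and 282 CPM against 17.5, 12.2 and 30.8 CPM in CTRL (log2 fold change 3.13 ± 0.43, adjusted p = 2.0e-05), and fell in IM 18h (-1.83 ± 0.45, adjusted p = 0.0023). KLHL3, 9561 bases past HNRNPA0 on the same strand, rose in JTE 6h (3.10 ± 0.79, adjusted p = 0.0072), from 5, 3 and 23 reads to 59, 47 and 172 reads, and also in IM 18h mRNA (2.42 ± 0.80, adjusted p = 0.018). The noncoding gene ENSG00000273156, 6958 bases past HNRNPD, went from 3, 1 and 2 reads to 26, 11 and 24 reads in JTE 6h (adjusted p = 0.0011). NFE2L3, in contrast to the nuclear RNA, fell in JTE 6h mRNA (-0.66 ± 0.15, adjusted p = 0.0035). ECH1, past HNRNPL, did not pass in JTE 1h or KCl 1h nuclear RNA or in JTE 6h mRNA (95% interval -0.31 to 0.12 in JTE 1h nuclear RNA).

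**Figure D5:**
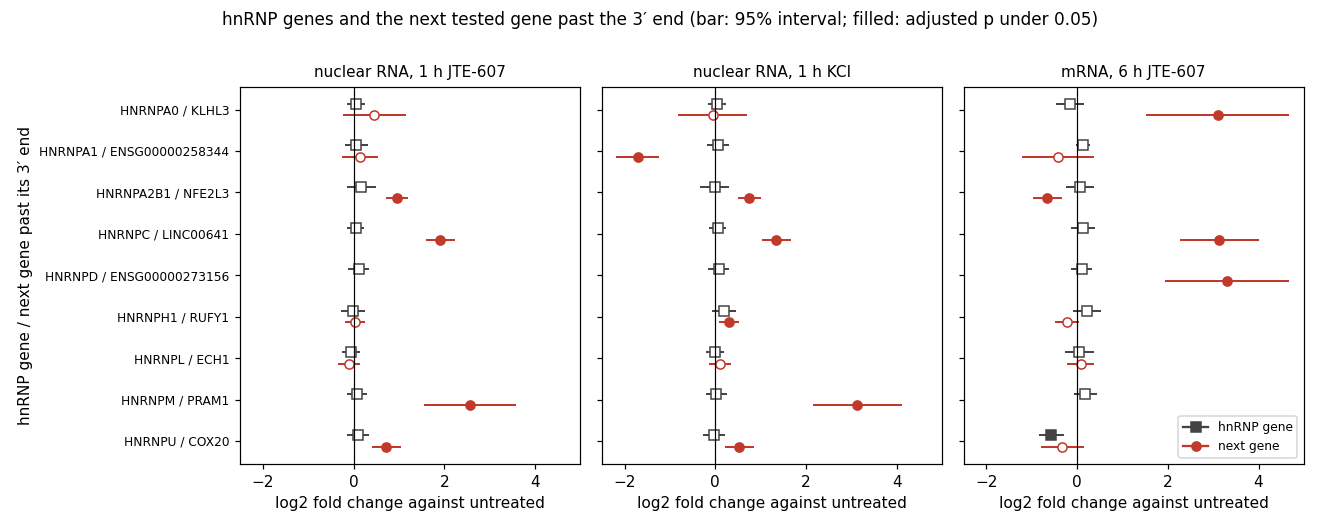
Log2 fold change against CTRL of 9 hnRNP genes (dark squares) and of the next tested gene past each 3′ end (red circles) in JTE 1h and KCl 1h nuclear RNA and in JTE 6h mRNA, with bars for the 95% interval and filled symbols where the adjusted p was under 0.05. The dark squares stay near 0 except HNRNPU in JTE 6h (-0.56), while LINC00641 lies at 1.92, 1.35 and 3.13, and PRAM1 at 2.57 and 3.13 in the nuclear panels.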

How the data were processed

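The authors trimmed and deduplicated the reads with fastp, aligned them to hg38 (GRCh38.p14 per the labels) with STAR, keeping unique mappers and introns of up to 10000 bases, and deposited raw counts of reads per gene (featureCounts over exons, no strand option stated). Introns of HNRNPC (29081 bases), HNRNPD (11888) and HNRNPM (10293) exceed that limit. Each deposited count table was analysed whole. Genes were kept by filterByExpr (18095 in mRNA, 21929 in nuclear RNA), scaled by TMM, and tested with edgeR 4.0.16 (R 4.3.3; quasi-likelihood, robust, all libraries of a fraction in 1 fit), with Benjamini-Hochberg adjustment over all genes. The nuclear minus mRNA difference used 12 libraries. DESeq2 1.42.0 was an alternative. Every share of all genes that passed is from the edgeR fits without a replicate block. Intervals are 95%.

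The code was tested on simulated data. Member genes and gene lists were chosen with earlier results of these data known. All 10 genes are named throughout; of 20 related genes, those with the largest rise and fall that passed at 10 CPM or more; and the 3 genes most like the mean profile. Of the erythroid list, 1 gene is not reported here. MATR3 was left out because its symbol had more than 1 gene ID. All 42 columns were mapped to samples by their names.

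The replicate numbers were checked by the correlation of deviations from the group means. It was 0.235 to 0.891 in the 4 nuclear comparisons with CTRL, 0.412 to 0.581 for IM 6h with JTE 6h, 0.584 to 0.671 for the KCl times and 0.112 to 0.322 for the late JTE times, so these pairs share more than a number. For the mRNA comparisons with CTRL it was -0.37 to 0.88 with the numbers as deposited. The read table of the study lists the totals of mRNA CTRL libraries 1 and 2 under exchanged numbers, and with that exchange it was 0.12 to 0.88 in 7 of 8 comparisons and 0.055 to 0.24 in JTE 18h. Library numbers are given as deposited, and unblocked tests do not use them. What a shared number stands for is not given in the sources used here. Gene positions come from GENCODE 44, promoters from RefSeq.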

Additional observations from a re-analysis of the deposited data

Results flagged for a closer look

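These differences come from the direct test between 2 times of the same treatment, and groups of 3 are too small for a test of single outlying libraries. HNRNPA2B1 was lower in IM 18h than in IM 6h mRNA (log2 fold change -0.53, edgeR adjusted p = 0.027), where 8.34% of all genes passed. HNRNPA1 was higher in KCl 3h than in KCl 1h mRNA (0.29, adjusted p = 0.012), where 4.89% of all genes passed. Each of these calls was lost when certain single libraries were left out.

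Between JTE 6h and JTE 18h mRNA, 4 genes differed: HNRNPH1 (-0.80, adjusted p = 0.00043), HNRNPA1 (-0.34, adjusted p = 0.0010), HNRNPK (-0.30, adjusted p = 0.0032) and HNRNPU (0.37, adjusted p = 0.037). Over all genes 21.8% passed in this comparison. The calls on HNRNPK and HNRNPU were lost under some alternatives, and those on HNRNPH1 and HNRNPA1 under none. For HNRNPA1 and HNRNPK, all 3 libraries were above CTRL at 6 h and all 3 below it at 18 h. HNRNPU fell with 6 h of JTE and stood closer to CTRL at 18 h.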

How the results depend on the processing

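With library totals in place of TMM, the number of hnRNP genes passing was 1 for IM 6h (0 as reported), 1 for JTE 18h (3), 3 for IM 18h against IM 6h (1) and 2 for IM 6h against JTE 6h (1). Upper quartile scaling gave 2 for JTE 6h (1) and 1 for JTE 18h. With no low-count filter it was 1 for IM 6h, 3 for IM 18h against IM 6h, 0 for IM 6h against JTE 6h, 4 for IM 18h against JTE 18h (2) and 0 for KCl 3h against KCl 1h (1). With only the groups compared it was 1 for JTE 18h, 1 for KCl 3h (2), 0 for IM 6h against JTE 6h, 7 for IM 18h against JTE 18h and 0 for KCl 3h against KCl 1h. DESeq2 gave 2 for IM 18h against IM 6h. With the replicate block it was 1 for IM 6h, 1 for KCl 1h nuclear RNA (0), 5 for IM 18h against IM 6h, 3 for IM 6h against JTE 6h, 5 for IM 18h against JTE 18h and 9 for JTE 18h against JTE 6h (4). As deposited, the mRNA numbers of CTRL, of the IM times and of the 18 h groups did not pair (lowest correlation of deviations -0.37). With mRNA CTRL numbers 1 and 2 exchanged, chosen after seeing the data, the replicate block gave 2 for IM 6h, 2 for JTE 6h, 4 for KCl 3h, 5 for IM 18h against IM 6h, 4 for IM 6h against JTE 6h, 6 for IM 18h against JTE 18h and 9 for JTE 18h against JTE 6h. The cause of these changes was not tested.

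With each library left out in turn, the number was 5 to 8 for IM 18h mRNA (7), 5 to 7 for IM 18h nuclear RNA (7), 1 for JTE 6h, 0 to 2 for JTE 18h, 1 to 2 for KCl 3h, 0 to 3 for IM 18h against IM 6h, 0 to 2 for IM 6h against JTE 6h, 1 to 2 for IM 18h against JTE 18h, 0 to 1 for KCl 3h against KCl 1h and 3 to 4 for JTE 18h against JTE 6h. It was 0 for the other comparisons. No call reversed. Of the 29 gene calls, 12 passed under every alternative. Library totals moved the median of all genes by 0.13 in IM 6h against JTE 6h and 0.14 in JTE 18h against JTE 6h, and upper quartile scaling by 0.12 in IM 18h nuclear RNA.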

Other observations

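For genes that share a start region with an hnRNP gene (opposite strand, starts within 1000 bases), calls did not always go together. CBX5, CBX3 and RMI1 are described here. CBX5, which encodes heterochromatin protein HP1 alpha and starts 60 bases from HNRNPA1, rose in JTE 6h mRNA (log2 fold change 0.91 ± 0.30, adjusted p = 0.034) and in IM 18h nuclear RNA (0.49 ± 0.085, adjusted p = 9.7e-05), while HNRNPA1 had 0.12 and 0.26 there. CBX3 (HP1 gamma), 367 bases from HNRNPA2B1, had -0.24 in IM 18h mRNA (adjusted p = 0.065), the same sign as HNRNPA2B1, which fell. RMI1, 95 bases from HNRNPK, had 0.55 (adjusted p = 0.074), where HNRNPK fell.

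Of 98 pseudogene rows named after the 10 genes, 74 belong to HNRNPA1. In CTRL mRNA they held 5.61% to 6.02% of the summed counts of parent and pseudogenes for HNRNPA1 and 4.55% to 5.26% for HNRNPC, and in CTRL nuclear RNA 1.24% to 1.82% and 0.906% to 1.13%. The levels of these genes are uncertain where copies share reads.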
